A study of Mus musculus with 2 samples.

Results

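Runx1, Runx2, Twist1, Twist2, Prrx1, Ebf1, Ebf2, Scx, Snai1 and Snai2 encode 10 transcription factors known from the formation and activation of connective tissue. They were taken by gene symbol from the 28692 genes in the count tables, and each was found once, with UMIs in both libraries. The cells were sorted from the lungs of Lepr-Cre;Rosa26-tdTomato mice of 8 to 10 weeks of age, which had received bleomycin, a DNA-damaging drug that scars the rodent lung, or saline. All mice carried both alleles: Cre is made under control of the leptin receptor gene and switches on the red reporter for good, so a labelled cell need not still make Lepr. Live tdTomato-positive cells of each treatment gave 1 library of single-cell transcripts counted by unique molecular identifiers (UMIs). How many mice stand behind a library, how much bleomycin they had and how long before the sort is not stated in the sources used here.

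The factors belong to several families. RUNX proteins bind DNA together with the partner Cbfb; Runx1 is best known from blood formation and Runx2 from bone formation. Scx (scleraxis), Twist1 and Twist2 are basic helix-loop-helix proteins that bind E-boxes with E proteins such as Tcf3, Tcf4 and Tcf12, and Scx is the classic factor of tendon progenitors. Snai1 and Snai2 are zinc-finger repressors that bind E-boxes in epithelial junction genes, Prrx1 is a homeodomain factor of limb and craniofacial mesenchyme, and Ebf1 and Ebf2 act in B cells, fat precursors and marrow stroma.

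In GRCm38 the genes lie at chr16:92601466-92826149 (Runx1, minus strand), chr17:44495987-44814797 (Runx2, minus), chr15:76457452-76459458 (Scx, plus, inside the span of Bop1), chr12:33957671-33959829 (Twist1, plus) and chr1:91801461-91848028 (Twist2, plus). The others lie at chr11:44617317-45008091 (Ebf1, plus), chr14:67233292-67430918 (Ebf2, plus), chr1:163245119-163313710 (Prrx1, minus), chr2:167538195-167542814 (Snai1, plus) and chr16:14705852-14709385 (Snai2, plus). Exons of Runx1, Runx2, Twist2 and Ebf2 overlap those of Gm26626, Runx2os1, Gm29100 and Gm10860 on the opposite strand, and how the counting treated strand is not given in the sources used here.

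The Runx genes carry in their promoters a repeat of the sequence that RUNX proteins bind, and it is shown because Runx1 and Runx2 are set side by side below. Windows from 250 bases before to 50 bases after a transcription start were read from RefSeq (GRCm38.p6), which held 9 windows for 7 of the 10 genes. The RUNX motif TGTGGT, or ACCACA on the other strand, was in 16.8% of all 32851 windows. A pair of these motifs in the arrangement below was found in 4 windows (0.0122%), which belonged to Runx1, Runx2, Runx3 and Gm16225. Capitals mark the RUNX motif, and each stretch is written 5′ to 3′ along the gene's strand. Counting the start as the first base, the motif pair begins at base 29 in Runx1 (chr16:92826025-92826054, minus strand) and at base 24 in Runx2 (chr17:44814583-44814612, minus strand). In Runx3 it begins 134 bases before the start (chr4:135120503-135120532, plus strand).
Runx1: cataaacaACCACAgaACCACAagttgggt
Runx2: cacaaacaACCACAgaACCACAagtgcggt
Runx3: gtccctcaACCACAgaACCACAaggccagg
The Runx2 stretch matched that of Runx1 at 27 of 30 bases and the Runx3 stretch at 19. The Runx1 window with the pair also had 3 E-boxes (CANNTG, found in 72.3% of windows), 1 of them CAGGTG. The Runx2 window had 2 E-boxes and 3 RUNX motifs, the pair included. The second RefSeq start of Runx1 (window chr16:92697280-92697579, minus strand) had no RUNX motif and no E-box. Ebf1 had 1 RUNX motif, 12 bases before a start (chr11:44618080-44618101, plus strand), and Snai1 had 1 E-box of the kind that SNAI proteins bind (CACCTG or CAGGTG, in 20.2% of windows), 126 bases before its start (chr2:167538061-167538082, plus strand).
Ebf1: aaaaaatcTGTGGTtggcgttt
Snai1: cccaggcgCACCTGctccggtc
In the Ebf1 line capitals mark the RUNX motif, and in the Snai1 line the E-box. A match is a description of letters. The libraries count 3′ ends, so they do not tell the starts of a gene apart.

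The bleomycin library held 61537182 UMIs over 4473 barcodes and the saline library 37570380 over 5455, and 4308 and 5196 barcodes were kept as cells with medians of 12271 and 6301 UMIs. The libraries shared 33 barcode sequences. Cells were grouped without the 10 genes, and groups were called like a cell type from marker lists: 3518 bleomycin and 3574 saline cells were fibroblast-like. Fibrotic fibroblasts (marked by Cthrc1, Postn and Spp1; 2107 and 22 cells) fell into clusters 9, 0 and 2, and alveolar fibroblasts (Npnt, Tcf21, Inmt) numbered 320 and 2033. Adventitial fibroblasts (Pi16, Dpp4) numbered 189 and 682, and 188 and 9 fibroblasts were cycling. The other fibroblast clusters met the marker rule for no kind: cluster 5 (Msln, Anxa8; 675 and 0 cells), cluster 3 (Il6, Tnfaip6; 5 and 703) and cluster 18 (Cxcl5, Cxcl9; 34 and 125). Cluster 5 was not free of the fibrotic markers: averaged over that list, a marker was found in 72.0% of its cells. The averages were 87.8% in cluster 9, 61.6% in cluster 0 and 54.0% in cluster 2, at unequal depth. Alveolar fibroblasts came mainly from cluster 10 after bleomycin and from clusters 1, 6 and 8 after saline, and adventitial ones from cluster 16 after bleomycin and cluster 4 after saline. Levels are UMIs of a gene per 1000000 UMIs (UPM) summed over the cells of a group in 1 library. Exact 95% intervals stand in square brackets and hold the error of counting alone. With 1 library per treatment there was no replicate check and no test, and a gene is called higher or lower when the ratio is at least 2-fold and the higher side has 50 UMIs and 5 UPM or more (the size rule).

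Of the 10 genes, 9 had enough UMIs in all fibroblasts to be judged by the size rule. Runx1, Runx2, Twist1, Ebf1 and Scx were higher in bleomycin fibroblasts, Twist2 was lower, and Prrx1, Snai1 and Snai2 did not pass. Across all 9961 genes judged in this comparison the rule called 16.7%, with 6.78% higher and 9.92% lower. The median log2 ratio was 1.26 over the 9 genes and -0.05 over all genes judged. Within alveolar fibroblasts only Runx1 of 4 genes judged passed, with 6.95% of all genes called. Within adventitial fibroblasts only Runx1 of 6 genes judged passed, with 11.4% called. Its ratio lay at the 2-fold line in both. Between fibrotic and alveolar fibroblasts of the bleomycin library 6 of 8 genes judged passed, against 13.3% of all genes. Runx1, Runx2, Twist1, Ebf1 and Scx were higher in fibrotic fibroblasts and Snai2 lower, where 700 of all genes were higher and 358 lower. The classes held 30325427 and 2941137 UMIs, so the rule judges a gene high in fibrotic cells at a lower level. Scx, Twist1 and Runx2, with 2, 2 and 6 alveolar UMIs, were judged only through their fibrotic counts.

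**Figure D1:**
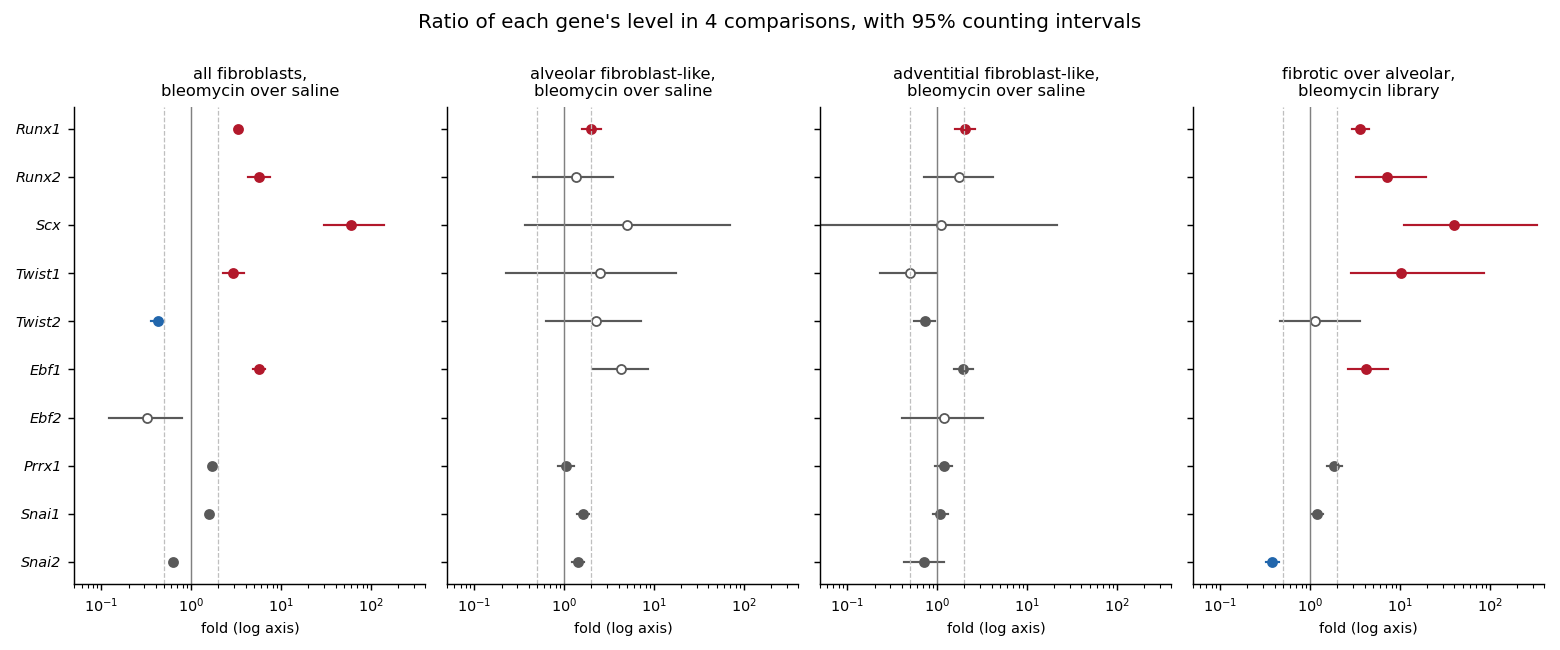
Fold ratio of the level of each gene in 4 comparisons, on a log axis, with 95% counting intervals; red points were higher and blue points lower by the size rule, grey points did not pass, open points had too few UMIs to be judged, dashed lines mark a 2-fold ratio, and intervals that leave the axis end at its edge. Scx stands farthest to the right in all fibroblasts (59.5-fold), and within alveolar and adventitial fibroblasts the judged genes lie within about 2-fold of no difference.

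Runx1 was higher in bleomycin fibroblasts and varied among their states. Its level was 83.4 UPM [80.9 to 85.9] in bleomycin fibroblasts and 25.4 [23.5 to 27.4] in saline fibroblasts, a 3.28-fold ratio [3.02 to 3.56]. Fibrotic fibroblasts of the bleomycin library had 109.7 UPM and alveolar fibroblasts of the same library 30.6, a 3.59-fold ratio [2.91 to 4.47]. Among fibrotic states the level was 143 UPM in cluster 0, 103 in cluster 9 and 66.5 in cluster 2, and these intervals did not overlap. Cluster 5 had 30.8 UPM, close to the alveolar fibroblasts and 0.280-fold [0.251 to 0.312] of the fibrotic level. The 22 saline cells that lay in fibrotic clusters had 34 Runx1 UMIs, or 149 UPM [103 to 208].

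Resting kinds of fibroblast differed less between the treatments. Alveolar fibroblasts had 30.6 UPM [24.6 to 37.6] of Runx1 after bleomycin and 15.3 [13.4 to 17.4] after saline, a 2.00-fold ratio [1.55 to 2.57]. Adventitial fibroblasts had 64.0 UPM [52.8 to 76.8] after bleomycin and 31.4 [26.2 to 37.4] after saline, a 2.04-fold ratio [1.57 to 2.64]. The intervals of each pair did not overlap, but both ratio intervals reach below 2. The alveolar call was lost under 6 of 11 alternative settings and the adventitial one under 2 of 10. Within the saline library, cluster 3 had 36.1 UPM and alveolar fibroblasts 15.3, a 2.36-fold ratio [1.94 to 2.87]; 3.95% of genes were called there. Cluster 18 had 130.1 UPM [98.8 to 168] after bleomycin, in 34 cells, and 55.0 [42.8 to 69.6] after saline.

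Neither Runx1 nor Runx2 was confined to mesenchymal cells: among classes of at least 30 cells both were highest in alveolar macrophage-like cells. There Runx1 had 187 UPM [170.3 to 206] after bleomycin and 285 [266 to 305] after saline, and Runx2 had 35.9 [28.7 to 44.5] and 64.4 [55.5 to 74.3]. The bleomycin levels were 0.658-fold [0.585 to 0.740] and 0.558-fold [0.426 to 0.726] of the saline ones, which did not pass the rule (8.60% of genes called). Runx1 also had 167 UPM [140.0 to 197] in 121 ciliated-like cells and 61.5 [50.8 to 73.9] in 312 alveolar type 2-like cells of the saline library. In endothelial-like cells it had 5.34 UPM after bleomycin and 2.64 after saline. All 7 alveolar macrophage markers had UMIs in fibroblasts, with a summed level of 26.9 UPM in bleomycin and 62.8 in saline fibroblasts. The part of macrophage RNA in the Runx1 and Runx2 levels of fibroblasts was not tested.

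Runx2 was higher in bleomycin fibroblasts too, with another order of states than Runx1. It had 12 UPM [11.1 to 13] in bleomycin fibroblasts and 2.13 [1.60 to 2.77] in saline fibroblasts, or 625 and 55 UMIs, a 5.64-fold ratio [4.28 to 7.57]. Fibrotic fibroblasts had 14.5 UPM and alveolar fibroblasts of the bleomycin library 2.04, from 6 UMIs, and the ratio was 7.13 [3.25 to 19.5]. The level was 18.8 UPM in cluster 9, 14.5 in cluster 0, 11.5 in cluster 2, 9.79 in cycling cells and 9.84 in cluster 5. Neighbours in the order of these levels overlap in their intervals, while those of cluster 9 [15.7 to 22.3] and cluster 2 [9.44 to 13.9] do not. Alveolar fibroblasts had 6 and 22 Runx2 UMIs and adventitial ones 11 and 14 after bleomycin and saline, too few to judge.

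Of 13 osteogenic genes tied to RUNX factors, 5 could be judged in all fibroblasts: 3 were higher in bleomycin and 2 lower, where 6.78% of all genes judged were higher and 9.92% lower. Their median log2 ratio was 1.90, against -0.05 over all genes. Spp1 (osteopontin) had 5006 UPM in bleomycin and 9.43 in saline fibroblasts, Mmp13 (collagenase) 22.1 and 0.696, and Col1a1 (type I collagen) 5457 and 1461. Alpl (alkaline phosphatase) had 6.81 and 19.4 UPM, and Phex (an endopeptidase of bone) 6.54 and 16.3. Of the defining markers of cartilage and bone cells, Col2a1, Bglap and Sp7 had no UMI in bleomycin fibroblasts. The list also holds Acan, Comp and Ibsp, and as a whole it was rare but not absent. Averaged over the list, a marker was found in 0.344% of cluster 9 cells and 0.0336% of cluster 0 cells. The partner Cbfb had 55.0 and 35.1 UPM, which did not pass. Spp1 is also one of the markers that named the fibrotic fibroblasts.

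**Figure D2:**
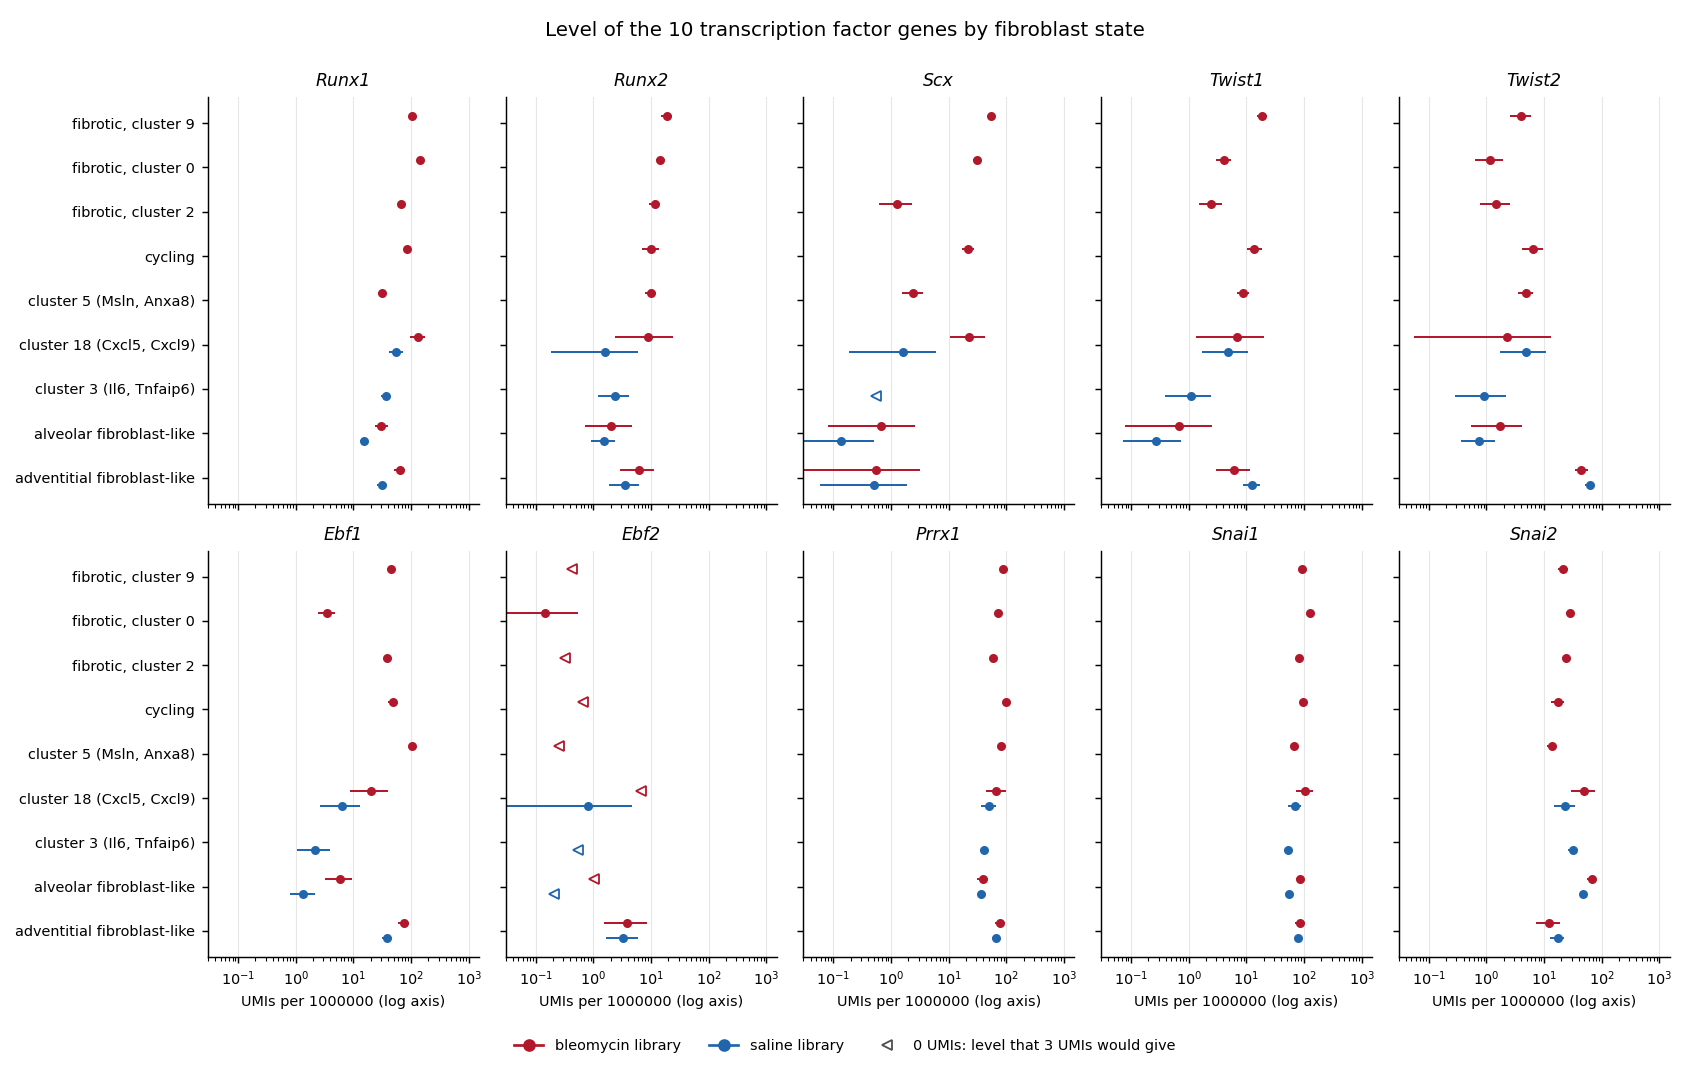
Level of each gene (UMIs per 1000000, log axis) in fibroblast states with at least 30 cells in a library; red points are the bleomycin and blue points the saline library, lines are 95% counting intervals, and open triangles mark groups with 0 UMIs at the level that 3 UMIs would give. Among clusters 9, 0, 2 and 5 of the bleomycin library, Scx spans 54.4 UPM in cluster 9 to 1.27 in cluster 2. Ebf1 spans 105 UPM in cluster 5 to 3.47 in cluster 0 among the same clusters. Both are lower still in alveolar fibroblasts of the saline library (0.136 and 1.36 UPM). Twist2 is highest in adventitial fibroblasts.

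Scx had the widest ratio of the 10 genes. It had 959 UMIs in bleomycin fibroblasts and 8 in saline fibroblasts, or 18.4 UPM [17.2 to 19.6] and 0.309 [0.133 to 0.609], a 59.5-fold ratio [30.1 to 138]. Fibrotic fibroblasts had 27.0 UPM and alveolar fibroblasts of the bleomycin library 0.680, from 2 UMIs, a 39.7-fold ratio [11 to 328]. Alveolar fibroblasts had 2 UMIs in each library and adventitial fibroblasts 1 and 2, so no difference between treatments was detectable within them. Bop1, a ribosome-assembly gene whose locus contains Scx, had 17.6 UPM in bleomycin and 12.1 in saline fibroblasts.

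Scx was found in some fibrotic states far more than in others. It had 54.4 UPM [49.1 to 60.1] in cluster 9, led by Col11a1, Cthrc1 and Postn, and 30.7 [27.9 to 33.8] in cluster 0, led by Frzb, Igfbp2 and Spp1. Cluster 2, led by Cfd and Serpina3m, had 1.27 UPM [0.654 to 2.21], and cluster 9 exceeded it 43.0-fold [24.3 to 83.9], in a comparison that called 12.7% of genes. Cycling fibroblasts had 21.8 UPM [17.7 to 26.6] and cluster 5 had 2.40 [1.61 to 3.44], which was 0.0888-fold [0.0591 to 0.128] of the fibrotic level. A single cycling cell held 20 of the 98 Scx UMIs of its group. A UMI of Scx was found in 23.2% of cluster 9 cells and 1.34% of cluster 2 cells. With each cell thinned to 2000 UMIs these shares were 6.96% [4.64 to 9.96] and 0% [0 to 0.491], where medians before thinning were 16975 and 11735 UMIs.

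Within cluster 0, cells with Scx also had Cthrc1 more often. With each cell thinned to 4000 UMIs, 59.5% [47.9 to 70.4] of 79 cells with a UMI of Scx had one of Cthrc1, a secreted protein of scar fibroblasts, against 19.5% [17.0 to 22.3] of 891 cells without Scx. In cluster 9, where most cells had Cthrc1, the shares were 97.6% [87.4 to 99.9] of 42 and 86.4% [82.3 to 89.8] of 346. For Acta2 in cluster 0 they were 73.4% [62.3 to 82.7] and 68.6% [65.4 to 71.6], with overlapping intervals. These pairs come from 1 library, were picked from many after their values were seen, and Cthrc1 helped to define the clusters.

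Outside the fibroblasts, Scx was highest in a cluster led by Actc1, Hhip and Myh11 that met the rule for no cell type and is called the Hhip cluster. It had 292 UPM [236 to 358] in 39 bleomycin cells and 116 [87.3 to 151] in 132 saline cells, with median depths of 7647 and 3460 UMIs. A single bleomycin cell of the cluster held 19 of its 93 Scx UMIs in that library. Within the saline library the Hhip cluster exceeded alveolar fibroblasts 852-fold [225 to 7215], with 2 UMIs in the alveolar cells and 29.9% of genes called. All 7 smooth muscle markers were found in the Hhip cluster, at 9771 and 11612 UPM in sum, but smooth muscle-like cells themselves had 9.96 and 3.39 UPM of Scx. In the saline library 312 alveolar type 2-like cells had 41 Scx UMIs, 21.9 UPM [15.7 to 29.8], against 1.23 [0.0311 to 6.84] in ciliated-like cells and 0.309 in fibroblasts. Col1a1 had 19.8 UPM in those alveolar type 2-like cells and 1461 in saline fibroblasts. Alveolar macrophage-like cells, which should lack Scx, had 4 and 3 UMIs of it.

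Of 12 tendon genes listed with Scx, 8 could be judged in all fibroblasts, and 6 were higher in bleomycin and 1 lower (6.78% and 9.92% of all genes), with a median log2 ratio of 1.99 against -0.05 over all genes. Col11a1 (a fibril collagen) had 20.7 UPM in bleomycin fibroblasts and 0 in saline fibroblasts. Thbs4 (a thrombospondin of tendon and muscle) had 40.2 and 1.39 UPM, Tnc (tenascin) 201 and 34.0, and Fmod (fibromodulin) 119.6 and 27.4. Egr1, a factor induced within minutes by stress, was the lower gene, at 288 and 1358 UPM. Kera, which defines mature tenocytes and corneal cells, had no UMI in fibroblasts of either library. Tnc is also one of the markers that named the fibrotic fibroblasts, and Col1a1 is in the osteogenic list as well.

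Pooled over all fibroblasts, the Twist genes went in opposite directions. Within adventitial fibroblasts both had the lower level after bleomycin, with overlapping intervals. Twist1 had 7.59 UPM [6.86 to 8.38] in bleomycin and 2.59 [2.01 to 3.29] in saline fibroblasts, a 2.93-fold ratio [2.26 to 3.86]. Twist2 had 4.43 UPM [3.88 to 5.04] in bleomycin and 10.6 [9.34 to 11.9] in saline fibroblasts, a ratio of 0.420 [0.351 to 0.502]. Twist1 was highest in cluster 9, with 18.8 UPM [15.7 to 22.3], followed by cycling cells with 13.8 [10.6 to 17.7], and these intervals overlap. Cluster 9 exceeded cluster 0 in Twist1 4.64-fold [3.37 to 6.46], in a comparison that called 12.4% of genes. Cycling fibroblasts were set against fibrotic ones as well, and 0 of 8 judged factors passed there, with 13.5% of genes called. Twist1 had 13.8 and 6.96 UPM in that comparison. Alveolar fibroblasts had 2 and 4 UMIs of Twist1 after bleomycin and saline.

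Twist2 was a gene of adventitial fibroblasts and pericyte-like cells. Adventitial fibroblasts had 44.5 UPM [35.3 to 55.4] after bleomycin and 61.8 [54.3 to 70.1] after saline, a ratio of 0.720 [0.552 to 0.930] that did not pass. Alveolar fibroblasts had 1.70 and 0.748 UPM, and in the saline library adventitial exceeded alveolar fibroblasts 82.7-fold [45.4 to 168], with 11.2% of genes called. Pericyte-like cells had 42.8 UPM [25.4 to 67.7] and 52.7 [28.8 to 88.5]. Adventitial cells held 80 of the 231 Twist2 UMIs of bleomycin fibroblasts and 246 of the 273 of saline fibroblasts, and they were 189 of 3518 and 682 of 3574 fibroblasts. How much of the pooled Twist2 ratio comes from the smaller number of adventitial cells was not tested. Twist1 was adventitial too in the saline library, with 12.3 UPM [9.11 to 16.3] there, 6.12 [3.06 to 11] in bleomycin adventitial cells and 0.272 in saline alveolar cells.

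Ebf1 was higher in bleomycin fibroblasts and divided their states in another way than Scx. Its level was 45.6 UPM [43.7 to 47.4] in bleomycin and 8.12 [7.06 to 9.29] in saline fibroblasts, a 5.61-fold ratio [4.87 to 6.50]. Cluster 5 had 105 UPM [99.1 to 111], 4.34-fold [3.96 to 4.76] the level of fibrotic fibroblasts, where the rule called 10.4% of genes. Mesothelial markers summed to 256 UPM in cluster 5 and 132 in all bleomycin fibroblasts, with Upk3b and Lrrn4 at 0 in both, and their part in its levels was not tested. Cluster 9 had 45.3 UPM [40.4 to 50.5], cluster 2 had 38.6 [34.8 to 42.8] and cluster 0 had 3.47 [2.56 to 4.6], and cluster 9 exceeded cluster 0 by 13-fold [9.60 to 18.1]. Clusters 9 and 2 overlap in their intervals. A single bleomycin cell of cluster 0 held 13 of its 48 Ebf1 UMIs. Fibrotic fibroblasts as a whole had 24.1 UPM and alveolar fibroblasts of the same library 5.78, a 4.18-fold ratio [2.59 to 7.21].

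Adventitial fibroblasts had Ebf1 without bleomycin. They had 75.1 UPM [63.0 to 88.9] after bleomycin and 38.5 [32.6 to 45.1] after saline, a 1.95-fold ratio [1.54 to 2.48] just under the rule. Within the saline library they exceeded alveolar fibroblasts 28.3-fold [17.7 to 47.6]. A single saline adventitial cell held 16 of the 153 Ebf1 UMIs of its group. Alveolar fibroblasts had 17 and 20 UMIs, or 5.78 UPM [3.37 to 9.25] and 1.36 [0.830 to 2.1], intervals that do not overlap but too few UMIs to be judged. Ebf1 was highest in pericyte-like cells, with 611 UPM [539 to 691] in 49 bleomycin cells and 727 [628 to 837] in 49 saline cells, and 98% and 95.9% of those cells had a UMI. Smooth muscle-like cells had 162 UPM [135 to 192] after bleomycin and 118 UMIs after saline, with an interval of 166 to 239 UPM, and endothelial-like cells 45.9 and 50.2. All 8 pericyte markers were found in bleomycin fibroblasts, at 483 UPM in sum against 84.4 in saline fibroblasts and 9929 in the bleomycin pericyte-like cells. They summed to 491 UPM in cluster 5, 1451 in cluster 9 and 493 in all fibrotic fibroblasts; the list includes Postn, itself a fibrotic marker. The part of pericyte RNA in the Ebf1 levels was not tested.

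Ebf2 was at the limit of detection. The libraries held 10 UMIs of it after bleomycin and 15 after saline, of which adventitial fibroblasts had 7 and 13. In the saline library adventitial fibroblasts had 3.27 UPM [1.74 to 5.59] and alveolar fibroblasts 0. The adventitial level was 16-fold the level that 3 counts over the 2033 alveolar cells would give. That figure is set against an allowance for 0 UMIs and leaves out the counting error of the 13 adventitial UMIs. A single cell held 3 of those 13 UMIs. Pericyte-like cells had no UMI of Ebf2 in either library, which allows a level of up to 7.14 UPM after bleomycin and 11.3 after saline. Of 10 genes of Cxcl12-rich stroma found with Ebf1 and Ebf2, 8 could be judged in all fibroblasts, and 0 were higher and 2 lower in bleomycin, where 6.78% of all genes judged were higher and 9.92% lower. With 8 genes this count is not far from that share, and the median log2 ratio was -0.35 against -0.05. The lower genes were Lepr, at 3.51 and 44.2 UPM, and Angpt1 (angiopoietin 1), at 33.0 and 89.5. Cxcl12 itself had 380.1 and 393 UPM.

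**Figure D3:**
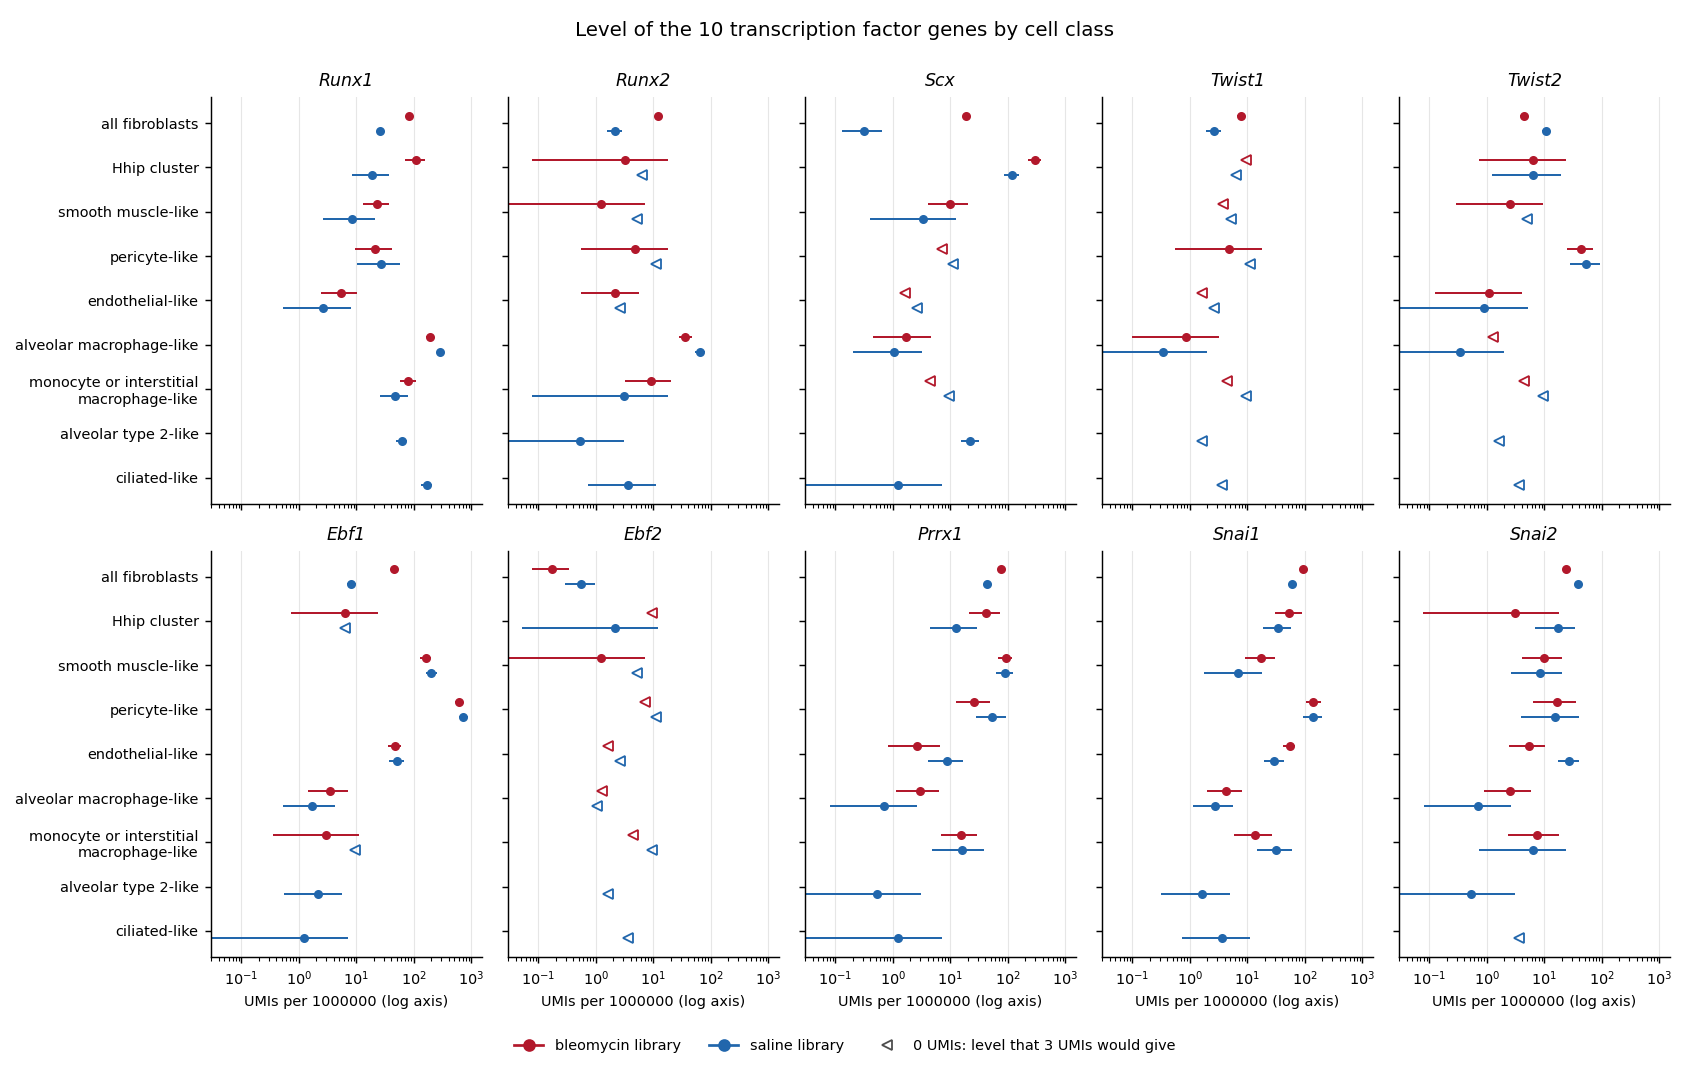
Level of each gene (UMIs per 1000000, log axis) in all fibroblasts and in other classes with at least 30 cells in a library; red points are the bleomycin and blue points the saline library, lines are 95% counting intervals, and open triangles mark groups with 0 UMIs at the level that 3 UMIs would give. Runx1 and Runx2 are highest in alveolar macrophage-like cells, Ebf1 in pericyte-like cells (611 and 727 UPM) and Scx in the Hhip cluster (292 and 116 UPM).

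Prrx1 was found in every fibroblast state with at least 30 cells. It had 74.7 UPM [72.4 to 77.1] in bleomycin and 43.9 [41.3 to 46.5] in saline fibroblasts, a 1.70-fold ratio [1.59 to 1.82] that did not pass the rule. Fibroblast states of the bleomycin library lay between 38.8 UPM in alveolar cells and 98.8 in cycling cells. Fibrotic over alveolar fibroblasts gave 71.8 and 38.8 UPM, a ratio of 1.85 [1.53 to 2.25]. Alveolar fibroblasts had 38.8 UPM [32.0 to 46.6] after bleomycin and 36.9 [33.9 to 40.1] after saline, with overlapping intervals. Smooth muscle-like cells had 90.8 and 88.1 UPM, while alveolar macrophage-like cells had 3.0 and 0.689 and alveolar type 2-like cells of the saline library 0.535. The relative Prrx2 had 83.1 UPM in bleomycin and 28.4 in saline fibroblasts and was the only one of 26 judged relatives and partners of the factors that was higher, where 6.78% of all genes were. Of the 26, 6 were lower (9.92% of all genes), with 4 of them, Cbfa2t3 (1.55 and 37.1 UPM), Egr1, Tcf21 (102 and 349) and Runx1t1 (26.6 and 73.1), at the widest ratios. Tcf21 is a factor of lung alveolar fibroblasts, and Cbfa2t3 and Runx1t1 are corepressors.

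The bleomycin level lay above the saline level for Snai1 and below it for Snai2, by less than 2-fold each. Snai1 had 92.5 UPM [89.9 to 95.2] in bleomycin and 59.1 [56.1 to 62.1] in saline fibroblasts, a 1.57-fold ratio [1.48 to 1.66]. Snai2 had 23.9 UPM [22.6 to 25.2] in bleomycin and 37.8 [35.5 to 40.3] in saline fibroblasts, a ratio of 0.631 [0.580 to 0.687]. Neither passed the rule. Snai2 was lower in fibrotic than in alveolar fibroblasts of the bleomycin library, at 25.2 and 66.6 UPM (0.378-fold [0.322 to 0.444]). Alveolar fibroblasts had 66.6 UPM [57.6 to 76.7] of it after bleomycin and 47.3 [43.9 to 51.0] after saline, so within that kind the bleomycin level was the higher one, by less than 2-fold. The saline alveolar clusters differed among themselves, at 70.8 UPM in cluster 6, 43.8 in cluster 1 and 25.2 in cluster 8, and the bleomycin cells of cluster 10 had 68.4. Adventitial fibroblasts had 12.2 and 17.1 UPM, 0.184-fold [0.113 to 0.286] of the alveolar level after bleomycin (16.8% of genes called) and 0.361-fold [0.277 to 0.464] after saline.

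Among fibroblast states with over 100 bleomycin cells Snai1 lay between 66.1 UPM in cluster 5 and 125 in cluster 0. Pericyte-like cells had 140.4 UPM [107 to 181] after bleomycin and 136 [95 to 188] after saline, endothelial-like cells 54.0 and 29.1, from 101 and 33 UMIs, and smooth muscle-like cells 17.4 [9.53 to 29.2] and 6.78 [1.85 to 17.4]. None of 12 epithelial junction genes that SNAI or TWIST factors repress had enough UMIs to be judged in fibroblasts. Of 12 mesenchymal genes of the epithelial-to-mesenchymal transition 11 could be judged, and 8 were higher in bleomycin fibroblasts and 0 lower, against 6.78% and 9.92% of all genes judged. Their median log2 ratio was 1.56, against -0.05 over all genes. Among them were Postn (periostin, 439.8 and 6.14 UPM), Acta2 (smooth muscle actin, 1426 and 124), Fn1 (fibronectin, 2850.4 and 411) and Loxl2 (a collagen cross-linking enzyme, 188 and 31.0). All 10 genes of a myofibroblast and scar list were higher as well, with a median log2 ratio of 3.13. That list shares Cthrc1, Postn, Spp1, Grem1, Tnc and Col12a1 with the markers that named the fibrotic fibroblasts. Postn and Tnc of the mesenchymal list are among those markers too. The scar list also shares Postn, Acta2 and Tnc with the mesenchymal list, and Col1a1 and Tnc with the tendon list.

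Detection in single cells ran with these levels. At 2000 UMIs per cell, which no cell fell below, a UMI of Runx1 was found in 14.0% [12.9 to 15.2] of bleomycin and 4.76% [4.08 to 5.51] of saline fibroblasts (53.3% and 14.7% before thinning). For Snai1 the shares were 15.5% and 10.0%, for Prrx1 13.6% and 8.37%, for Ebf1 7.31% and 1.73%, and for Snai2 5.69% and 7.64%. For Scx they were 2.56% [2.06 to 3.14] and 0.0560% [0.00678 to 0.202]. In alveolar macrophage-like cells, which should lack the factors other than Runx1 and Runx2, the shares of the other 8 genes lay between 0% and 1.2% after bleomycin and between 0% and 0.628% after saline. Median depths were 13592 and 6836 UMIs in fibroblasts and 6714 and 4161 in macrophages before thinning. In fibroblasts Twist1 was found in 1.39% and 0.560% of cells, Twist2 in 0.767% and 2.66%, Runx2 in 2.19% and 0.308%, and Ebf2 in 0.0284% and 0.140%.

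**Figure D4:**
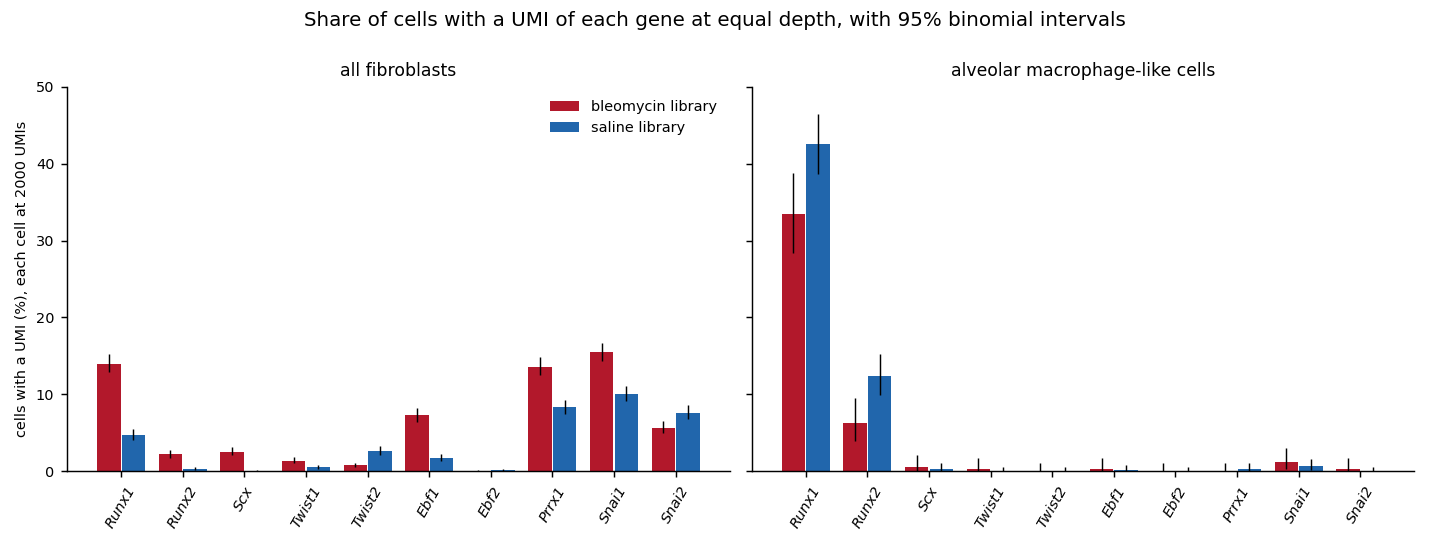
Share of cells with a UMI of each gene after each cell was thinned to 2000 UMIs, in all fibroblasts and in alveolar macrophage-like cells; red bars are the bleomycin and blue bars the saline library, and error bars are 95% binomial intervals. Fibroblast shares of Runx1, Ebf1 and Scx are higher after bleomycin (14.0%, 7.31% and 2.56%) than after saline (4.76%, 1.73% and 0.0560%), and macrophages show Runx1 and Runx2 and little of the other genes.

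Profiles across 21 columns of class and library with at least 50 cells were compared by Pearson's r of log2(UPM + 1), as a description over columns that share libraries and depth. Among 9608 genes the most alike were Rnf149 (0.87) and Pak1 for Runx1, and Pld3 (0.87), Rnf149 and Reep5 for Runx2. They were Rerg (0.79), Fbxo2 and Fgf18 for Scx, Gm22 (0.89), Tmed3 and Gjb5 for Twist1, and Dcn (0.82), Penk and Tmed3 for Twist2. They were Prss23 (0.90), Atl3 and Myo1c for Ebf1, Fzd1 (0.95), Mgp and Lox for Prrx1, Nid1 (0.95), Plat and Tfpi for Snai1, and Vstm4 (0.91), Foxf2 and Mxra7 for Snai2. Ebf2 had too few UMIs for this. Among the 10 genes themselves r was 0.81 between Snai1 and Snai2, 0.76 between Runx1 and Runx2, 0.74 between Prrx1 and Snai2 and 0.69 between Twist1 and Twist2. Scx and Ebf1 had -0.09, and the 0.82 between Twist2 and Ebf2 rests on the few UMIs of Ebf2.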

How the data were processed

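Live tdTomato-positive lung cells were profiled as 1 droplet library per treatment (10x 3′ chemistry). The authors deposited UMI counts per gene and barcode, made with Cell Ranger 2.1.1 and mm10, per the submitters' processing notes. Barcodes with at least 500 genes, 1000 UMIs and at most 10% mitochondrial UMIs were used. The automatic threshold of Scrublet marked 5 bleomycin and 8 saline barcodes, so the 160 and 236 with the highest scores (0.8% per 1000 barcodes) were left out instead. Cells were clustered on 2852 variable genes without the 10 factors (30 components, 15 neighbours, Leiden resolution 1, 28 clusters, no integration; scanpy 1.11.5, leidenalg 0.10.2, scikit-learn 1.9.0, scipy 1.17.1). Clusters were named from marker lists by thresholds set after the clusters were seen.

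UMIs were summed per class and library and divided by the class total. Log2 ratios have 1 UPM added to both levels. Levels carry exact Poisson intervals, shares exact Clopper-Pearson intervals and ratios exact conditional binomial intervals (95%). A level against 0 UMIs uses 3 counts over the class. The size rule was tested on simulated data. All 10 factors were named in each comparison, up to 4 genes per list with the widest ratios past the rule, and the 3 most alike profiles, of which 1 is not reported here. Other list genes named in the text were chosen after their values were seen. The genes and lists were chosen with earlier results of these data known. Alternatives covered scaling, the size rule, thinning, clustering, doublets and cell filters.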

Additional observations from a re-analysis of the deposited data

How the results depend on the processing

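With 1 library per treatment no replicate could be left out. No paired analysis was possible because each treatment has a single library and the results come from no test. Of 10 factors, 6 passed the size rule in all fibroblasts, and over 12 alternatives the count lay between 2 and 6. It was 2 (Runx1 and Ebf1) with a required level of at least 20 UPM. In fibrotic over alveolar bleomycin fibroblasts it lay between 4 and 6 over 11 alternatives, against 6. In alveolar fibroblasts the single call, Runx1, became 0 under scaling without the 50 most abundant genes, TMM scaling, thinning to 2000 UMIs, clustering with the factors, a stricter cell filter, and, chosen after seeing the data, with cluster 3 counted as alveolar. In adventitial fibroblasts the 1 call became 2 (Runx1 and Ebf1) under scaling without the 50 most abundant genes, TMM scaling and clustering with the factors. It became 2 (Runx1, and Twist1 lower) at Leiden resolution 0.6, 0 at resolution 1.5 and 3 (Runx1, Ebf1, and Twist1 lower) with no doublet removal. Thinning gave 1 call there, Twist2 lower in place of Runx1. The cause was not tested. No log2 ratio past the rule changed sign. In all fibroblasts Runx1 and Ebf1 passed under 12 of 12 alternatives, Runx2, Scx and Twist2 under 11, and Twist1 under 10. In alveolar fibroblasts 19.4% of all called genes were higher in bleomycin, against 6.84% with thinning, 33.1% with a level of 20 UPM and 36.8% at resolution 1.5. In fibrotic over alveolar fibroblasts 66.2% were higher, against 80.0%, 49.6% and 57.3%, and 76.4% with no minimum level. With a level of 20 UPM the genes called higher and lower numbered 361 and 571 in all fibroblasts (against 675 and 988), 93 and 188 in alveolar fibroblasts (109 and 452) and 319 and 324 in fibrotic over alveolar fibroblasts (700 and 358), and with thinning 59 and 355 in adventitial fibroblasts (152 and 570). Thinning moved the median log2 ratio of all genes to 0.23, against 0.06, in fibrotic over alveolar fibroblasts, to -0.29, against -0.18, in adventitial ones and to -0.20, against -0.06, in alveolar ones. Of 40 shares of fibroblasts computed without thinning or at 4000 UMIs, 35 moved beyond their interval. At the main settings Ebf2 had too few UMIs to be judged throughout, and so had Twist1, Scx and Runx2 within alveolar and adventitial fibroblasts. Ebf1 and Twist2 had too few within alveolar fibroblasts as well. The part of depth in these low counts was not tested.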
